A study of Homo sapiens with 12 samples.

Results

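Imprinted genes are expressed mainly from the copy inherited from 1 parent. The genes described here are 33 imprinted genes of 14 loci, chosen by name, among 38899 protein-coding and lncRNA genes of GENCODE release 44. All 33 symbols matched the annotation, 28 as protein-coding genes and 5 as lncRNAs. H3K27me3, the trimethylation of histone 3 at lysine 27, was measured by ChIP-seq in SH-SY5Y, a line of human neuroblastoma (WT), and in 2 lines made from it by knocking out MAPT, the gene for Tau, which are called 231K and 232P (Tau-KO). Each genotype had 2 replicates, and each of the 6 ChIP samples had its own peak list. Each Tau-KO genotype is a single line, so that the loss of Tau and other properties of a line cannot be told apart. No list of the 6 input samples was used here.

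In imprinted clusters, the parental copies differ in DNA methylation at short control regions, and the silent copy often carries repressive histone marks. PRC2 places H3K27me3 on repressed chromatin, where it can cover single promoters or domains of many kilobases. The reads of the lists are not assigned to a parental copy, so a peak says only that at least some copies carried the mark. A peak missing from a list did not pass the threshold of that library, and the depth estimated from the peaks differed between lists. In percent of the highest, WT replicate 1, this estimate was 66.6 for WT replicate 2, 94.8 and 68.7 for 231K, and 68.1 and 56.9 for 232P. Peaks covered 7.27% and 9.62% of the genome in the WT samples, 6.69% and 9.88% in 231K, and 2.39% and 7.21% in 232P. The list of 232P replicate 1 thus stood apart from the others, and values are given for every sample so that results can be read with and without it. The names of single peaks in both lists of 232P begin with 231P, as a separate Tau-KO line of the study is called. The sample labels were followed, and whether the lists called 232P here come from that line was not tested.

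The mark was counted at the TSS of a gene where any annotated start site had a peak within 1 kb (TSS mark). Of the 33 imprinted genes, 10 had a TSS mark in each WT sample, 9 in each 231K sample, and 8 and 7 in the 232P samples. Over all genes the share was 17.5% and 17.6% in WT, 16.1% and 17.5% in 231K, and 13.01% and 15.1% in 232P, and it was thus also lowest in 232P. The 6 genes with a TSS mark in all 6 samples were IGF2, MAGEL2, NDN, GNAS, PLAGL1 and GRB10, and this was the case for 10.3% of all genes. No TSS mark in any sample was found for 20 of the 33 genes, against 79.0% of all genes. The imprinted genes had a median of 9 annotated start sites and all genes a median of 2, and the part of this difference in the counts was not tested. When only the gene start was counted, 4 of the 33 genes had a mark in all 6 samples and 27 in none. The share over all genes is not given for this count. A peak anywhere in the gene or 1 kb on either side was found in all 6 samples for 10 imprinted genes and for 16.5% of all genes. A longer gene has more room for a peak, and gene length was not matched in this count. Reference genes placed these numbers. None of 5 genes active in every cell (ACTB, GAPDH, RPLP0, EEF1A1 and TBP) had a TSS mark in any sample. Of 7 known Polycomb targets, 6 had a TSS mark in at least 1 sample and PAX3, PAX9, HOXA13 and TBX5 in all 6. MAPT had none in any sample, so that the lists do not check the genotype.

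**Figure D1:**
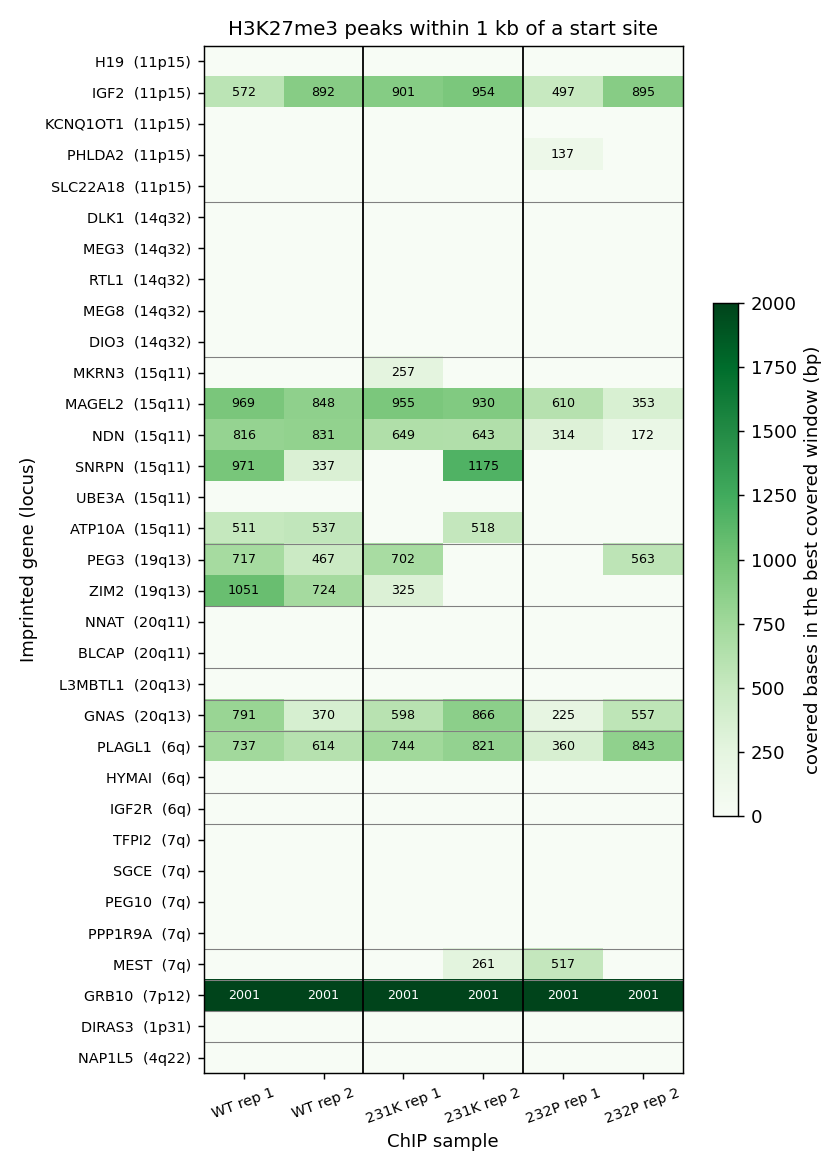
Bases covered by H3K27me3 peaks in the best covered window of 1 kb on each side of a start site, for each of the 33 imprinted genes (lines, grouped by locus) and each of the 6 ChIP samples (columns); empty cells are 0. GRB10 was covered over its whole window in all samples, and SNRPN, ATP10A and ZIM2 were covered in both WT samples and in neither 232P sample.

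The strongest and widest domain of the 33 genes lay at GRB10 on 7p12, an adaptor protein that dampens signalling of the insulin and IGF receptors and that neurons express from the paternal copy. Peaks covered 42.0% and 46.4% of the gene (chromosome 7, 50590063 to 50793462, minus strand) in WT, 41.0% and 46.2% in 231K, and 30.8% and 41.9% in 232P. The 232P replicate 1 was low and the other 5 samples overlapped between genotypes. Divided by the genome-wide share, the values were 5.78 and 4.82 in WT, 6.13 and 4.67 in 231K, and 12.9 and 5.81 in 232P, so that 232P replicate 1 was then the highest. The highest fold enrichment in the gene was 9.28 and 13.5 in WT, 10.9 and 14.8 in 231K, and 8.67 and 9.83 in 232P. The widest peak had 15312 and 46182 bp in WT, 14382 and 29347 bp in 231K, and 5741 and 19304 bp in 232P. Replicate 2 had the wider peak in each genotype, and within each replicate number WT had the widest and 232P the narrowest.

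The domain covered only the part of GRB10 near its start. In the first 100 kb of the gene, peaks covered 85.5% and 93.3% of the bases in WT, 83.2% and 92.7% in 231K, and 62.7% and 85.1% in 232P. In the last 100 kb, the covered share was 0 in both WT and both 232P samples and 0.219% and 0.251% in 231K. The last peak of the domain ended 99.6 and 101 kb from the gene start in WT, 100.04 and 113 kb in 231K, and 97.9 and 99.9 kb in 232P. The edge of the domain was thus at nearly the same place in 5 samples, and in 231K replicate 2 a lone peak of 251 bp lay farther into the gene. A single peak beyond 120 kb, of 219 bp and too narrow to be seen in the map of the peaks, was listed in 231K replicate 1 and in no other sample. The 20 kb before the gene start were covered to 87.6% and 90.0% in WT, to 88.6% and 93.3% in 231K, and to 56.4% and 79.0% in 232P. The gene start itself was free of peaks in all 6 samples, in a gap of 1095 to 1540 bp between the domain before it and that behind it.

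**Figure D2:**
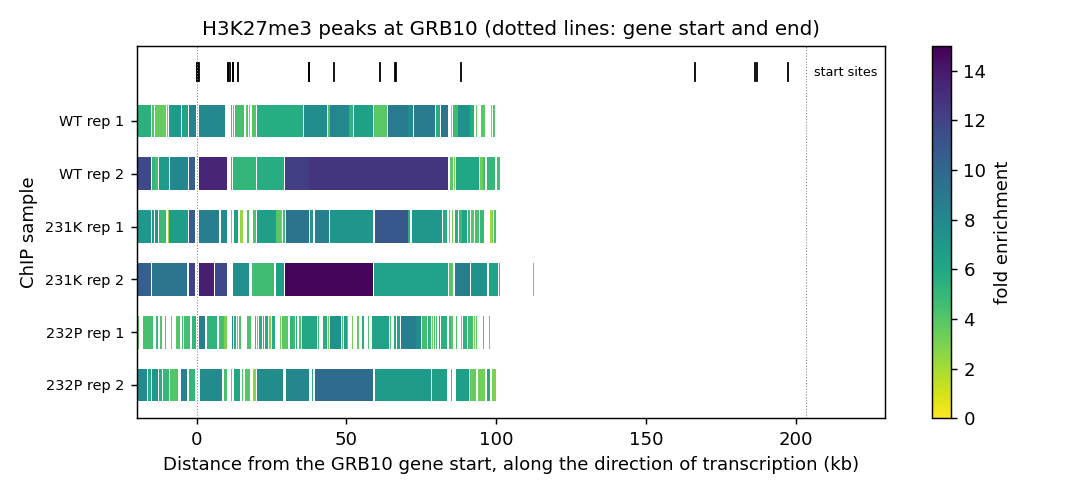
H3K27me3 peaks at GRB10 in the 6 ChIP samples (lines), against the distance from the gene start in kb; each bar is a peak, drawn to its width and coloured by its fold enrichment, and ticks at the top are the annotated start sites. The domain ran from before the gene start to about 100 kb into the gene in all samples, with a gap at the start itself.

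Promoter windows of GRB10 are compared here by their CG content. CG dinucleotides are the sites of DNA methylation, and windows dense in them are CpG islands. The RefSeq promoter windows (GRCh38.p14) have 250 bases before and 50 after a start, and the 2 windows of GRB10 with the most and the fewest CG are shown to compare a promoter in the gap with a promoter inside the domain. Capitals mark the CG dinucleotides. The first window was overlapped by no peak in any sample and the second was covered over all 300 bases in all 6 samples. Since the 2 were chosen by CG count, their difference in it is no result. The remaining GRB10 windows had 24, 44 and 4 CG. Those with 24 and 44 were overlapped by no peak, and that with 4 was covered in every sample but 232P replicate 1.
GRB10 chr7:50792825-50793124, minus strand, 49 CG: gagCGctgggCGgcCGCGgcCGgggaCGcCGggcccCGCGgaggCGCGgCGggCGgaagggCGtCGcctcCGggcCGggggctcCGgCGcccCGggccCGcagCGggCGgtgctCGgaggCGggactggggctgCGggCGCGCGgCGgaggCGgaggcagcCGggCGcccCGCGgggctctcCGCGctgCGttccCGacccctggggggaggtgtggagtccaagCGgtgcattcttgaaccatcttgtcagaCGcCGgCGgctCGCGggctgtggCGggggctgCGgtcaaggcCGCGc
GRB10 chr7:50732304-50732603, minus strand, 3 CG: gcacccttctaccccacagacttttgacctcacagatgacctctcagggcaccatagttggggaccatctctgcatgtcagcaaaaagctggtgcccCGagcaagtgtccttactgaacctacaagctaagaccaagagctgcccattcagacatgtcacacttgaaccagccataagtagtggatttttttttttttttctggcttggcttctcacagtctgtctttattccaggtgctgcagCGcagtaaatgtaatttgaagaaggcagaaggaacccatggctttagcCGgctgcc

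The 15q11 locus is the Prader-Willi and Angelman syndrome region. MKRN3, MAGEL2, NDN and SNRPN are expressed from the paternal copy, and the ubiquitin ligase gene UBE3A from the maternal copy in neurons. Peaks covered 16.0% and 15.7% of its 2300 kb in WT, 12.2% and 12.5% in 231K, and 3.05% and 8.44% in 232P. The widest peak had 4906 and 5680 bp in WT, 5365 and 9642 bp in 231K, and 1266 and 2664 bp in 232P. All 4 Tau-KO samples had a lower covered share than both WT samples. Divided by the share of the genome covered in the same sample, these values were 2.19 and 1.64 in WT, 1.82 and 1.26 in 231K, and 1.27 and 1.17 in 232P. Within each replicate number, 231K was below WT and 232P below 231K, but relative to the genome-wide share 231K overlapped WT, while both 232P samples were below both WT samples. The summit heights and backgrounds were also thinned to the shallowest library, with peaks that still passed a common threshold kept at their deposited width, so that the number of peaks but not their width was adjusted. In these thinned lists, the shares were 11.5% and 14.7% in WT, 9.09% and 11.7% in 231K, and 2.86% and 8.30% in 232P, and 231K overlapped WT.

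The mark was not spread evenly over 15q11. In bins of 25 kb, that of MAGEL2 was the most covered in 5 samples, and in WT replicate 1 a bin between NDN and SNRPN was covered to 64.3% and that of MAGEL2 to 63.0%. The mark was found along the 1136 kb between NDN and SNRPN, with breaks. The bin 387.5 kb behind the NDN start was covered to 2.16% and 1.46% in WT, 0% and 0% in 231K, and 0% and 2.45% in 232P. That at 937.5 kb was covered to 2.92% and 1.18% in WT and to 0% in every Tau-KO sample. The whole stretch from NDN to SNRPN was covered to 25.8% and 25.7% in WT, to 20.04% and 19.5% in 231K, and to 4.86% and 14.1% in 232P. Both lines were below WT in these shares. Relative to the genome-wide share, the values were 3.55 and 2.67 in WT, 2.99 and 1.97 in 231K, and 2.03 and 1.95 in 232P, and with thinned lists 18.6% and 24.1%, 15.01% and 18.2%, and 4.62% and 13.8%. WT and 231K overlapped relative to the genome and did not overlap with thinning. From the end of SNRPN to UBE3A lie 355 kb with the host transcript of the small nucleolar RNA clusters, SNHG14, in which 2.27% and 2.41% of the bases were covered in WT, 1.04% and 1.21% in 231K, and 0.0583% and 0.254% in 232P. The genotypes did not overlap there. Relative to the genome-wide share of the same sample, the values were 0.313 and 0.250 in WT, 0.155 and 0.122 in 231K, and 0.0244 and 0.0353 in 232P, so the order held. With thinned lists they were 1.43% and 1.81%, 0.472% and 0.829%, and 0.0583% and 0.254%, in the same order. This stretch was singled out after its values were seen, rests on 18 to 19 peaks per WT sample, and contains repeated sequence whose treatment in the mapping is not given in the sources used here. UBE3A (chromosome 15, 25333728 to 25439051) had no peak in any sample.

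**Figure D3:**
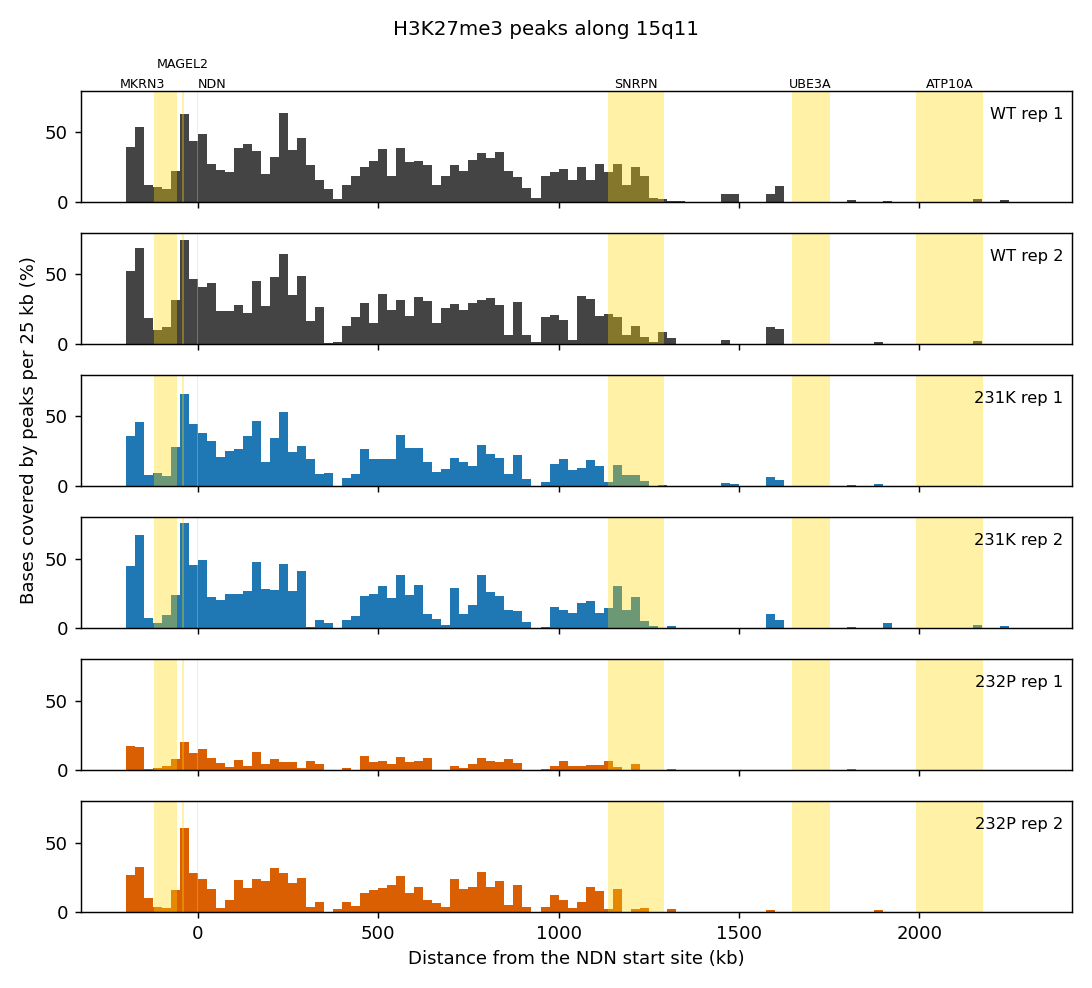
Share of the bases covered by H3K27me3 peaks in bins of 25 kb along 15q11 (vertical axis, percent) against the distance from the NDN start site in kb, for each ChIP sample; yellow bands are the 6 imprinted genes of the list. Most bins from before MAGEL2 to SNRPN were covered in part, with some nearly free of peaks in between. Coverage was low behind SNRPN and absent over UBE3A, and 232P replicate 1 was low along the whole locus.

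MAGEL2, a protein of the MAGE family that acts with ubiquitin ligases in protein recycling, had 969 and 848 covered bases in its start window in WT, 955 and 930 in 231K, and 610 and 353 in 232P. The 232P samples were below the other 4, and 231K overlapped WT. Its strongest peak at the start was enriched 4.26 and 6.73 times in WT, 8.61 and 7.50 in 231K, and 3.91 and 3.97 in 232P. NDN, a MAGE protein that restrains growth and promotes survival of neurons, had the following values, and the difference between the genes was not tested. Its start window had 816 and 831 covered bases in WT, 649 and 643 in 231K, and 314 and 172 in 232P, and the genotypes did not overlap. Its strongest peak at the start was enriched 6.63 and 6.30 times in WT, 5.33 and 8.34 times in 231K, and 4.47 and 4.41 times in 232P, and here 231K overlapped WT. Of the NDN gene with 1 kb on each side (chromosome 15, 23685400 to 23687305), 69.7% and 70.0% were covered in WT, 60.7% and 56.4% in 231K, and 8.04% and 45.3% in 232P.

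The NDN start lay in a gap between flanking peaks in all 6 samples, as at GRB10. The gap had 1185 and 1170 bp in WT, 1352 and 1642 bp in 231K, and 3789 and 1838 bp in 232P. The MAGEL2 start lay inside a peak in WT replicate 1 and 232P replicate 1, and in the other 4 samples the peak before the gene began 46 to 648 bp from it. The promoter windows of both genes and of the SNRPN start with the most CG, which no peak overlapped in any sample, are shown because the neighbours MAGEL2 and NDN lie in the same domain and differ in CG count. The NDN window was overlapped by 5 bases of a peak in WT replicate 2 only, and that of MAGEL2 by 300 and 98 bases in WT, 205 and 180 in 231K, and 172 and 0 in 232P.
MAGEL2 chr15:23647818-23648117, minus strand, 9 CG: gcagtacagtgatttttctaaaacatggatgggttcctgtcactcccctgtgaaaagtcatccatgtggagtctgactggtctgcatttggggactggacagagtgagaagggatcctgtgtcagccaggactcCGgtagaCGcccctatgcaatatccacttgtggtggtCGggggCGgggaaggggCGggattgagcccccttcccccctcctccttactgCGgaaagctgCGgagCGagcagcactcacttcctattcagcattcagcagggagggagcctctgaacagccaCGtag
NDN chr15:23687256-23687555, minus strand, 35 CG: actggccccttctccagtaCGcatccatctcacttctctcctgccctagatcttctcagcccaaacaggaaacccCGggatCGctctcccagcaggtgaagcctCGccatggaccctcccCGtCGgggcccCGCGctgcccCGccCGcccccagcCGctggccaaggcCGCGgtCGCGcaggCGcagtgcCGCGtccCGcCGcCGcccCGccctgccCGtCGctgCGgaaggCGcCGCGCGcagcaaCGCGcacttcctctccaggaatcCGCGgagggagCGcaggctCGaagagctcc
SNRPN chr15:24954737-24955036, plus strand, 18 CG: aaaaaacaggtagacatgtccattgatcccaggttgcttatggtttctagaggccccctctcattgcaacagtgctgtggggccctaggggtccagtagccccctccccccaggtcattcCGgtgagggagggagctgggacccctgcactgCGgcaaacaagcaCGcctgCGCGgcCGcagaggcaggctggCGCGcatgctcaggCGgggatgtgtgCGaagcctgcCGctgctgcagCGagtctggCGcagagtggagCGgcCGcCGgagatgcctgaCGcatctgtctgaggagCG

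SNRPN, which encodes a splicing protein and carries the imprinting centre of the locus at its promoter, had a TSS mark in both WT samples and in neither 232P sample. Its best covered window had 971 and 337 covered bases in WT, 0 and 1175 in 231K, and 0 and 0 in 232P. The mark lay at upstream start sites, at 24823637 and 24856551 to 24856601 of chromosome 15, and not at the CG-rich start whose window is shown. Over the whole gene with 1 kb on each side, 17.2% and 10.7% were covered in WT, 6.12% and 13.04% in 231K, and 2.01% and 3.66% in 232P, so 231K overlapped WT and 232P was below both. ATP10A, a flippase that moves phospholipids across membranes, had a single peak near its start in WT replicates 1 and 2 and in 231K replicate 2, of 511, 537 and 518 bp and with a fold enrichment of 4.26, 3.36 and 3.75. MKRN3, a ubiquitin ligase that restrains the onset of puberty, had a TSS mark only in 231K replicate 1, with 257 covered bases and a fold enrichment of 2.53. Peaks inside the MKRN3 gene were present in all samples and covered 9.78% and 12.8% of it in WT, 8.53% and 8.12% in 231K, and 2.22% and 3.501% in 232P.

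On 19q13, PEG3 and ZIM2 share their first start sites and are expressed from the paternal copy. PEG3 encodes a zinc finger protein linked to growth and maternal behaviour. Its start window had 717 and 467 covered bases in WT, 702 and 0 in 231K, and 0 and 563 in 232P. That of ZIM2 had 1051 and 724 in WT, 325 and 0 in 231K, and 0 and 0 in 232P. Of the PEG3 gene with its flanks, 12.9% and 8.93% were covered in WT, 3.14% and 2.41% in 231K, and 0.756% and 5.09% in 232P, and all 4 Tau-KO samples were below both WT samples. ZIM2 contains the same peaks and is no separate evidence. Its strongest marked peak in WT replicate 1 had its summit 17602 bp inside the gene, at an inner start site. The locus held only 7 and 5 peaks in WT, 3 and 2 in 231K and 1 and 2 in 232P, and the widest had 1334 and 1450 bp in WT, 378 and 442 bp in 231K, and 247 and 840 bp in 232P. Divided by the genome-wide share, the covered share of the locus was 0.872 and 0.458 in WT, 0.231 and 0.121 in 231K, and 0.156 and 0.348 in 232P, and the Tau-KO samples were below WT. With equal numbers of the strongest peaks, the share was 2.55% and 2.19% in WT and 2.51% in 232P replicate 2, so that this sample overlapped WT, while 231K with 0% and 0.668% and 232P replicate 1 with 0.373% were below. With thinned lists, WT had 5.48% and 3.91%, 231K 0.491% and 1.19%, and 232P 0% and 2.51%, and all 4 Tau-KO samples were below WT.

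On 11p15, only IGF2, the insulin-like growth factor expressed from the paternal copy, had a TSS mark in all 6 samples. Its window had 572 and 892 covered bases in WT, 901 and 954 in 231K, and 497 and 895 in 232P, and the genotypes overlapped. The mark lay at start sites between 2141016 and 2141238 of chromosome 11, about 17 kb into the gene, where the antisense gene IGF2-AS overlaps it. The strongest peak there was enriched 5.96 and 7.75 times in WT, 5.76 and 9.17 in 231K, and 4.76 and 7.94 in 232P. Peaks have no strand, so IGF2 and IGF2-AS cannot be told apart. The widest peak of 11p15 had 1238 and 2413 bp in WT, 2466 and 3197 bp in 231K, and 1194 and 2684 bp in 232P. H19, the maternally expressed lncRNA of the same domain, had no peak, and the peak nearest to its start was 37257 to 40864 bp away. KCNQ1OT1, the lncRNA that silences its neighbours on the paternal copy, and SLC22A18 had none either, and PHLDA2, a growth restricting gene of the placenta, had a single peak in 232P replicate 1 with 137 covered bases.

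PLAGL1 on 6q, a zinc finger protein that restrains the cell cycle, had 737 and 614 covered bases at its start in WT, 744 and 821 in 231K, and 360 and 843 in 232P. The widest peaks of the locus had 1464 and 3261 bp in WT, 971 and 3597 bp in 231K, and 405 and 2612 bp in 232P. Replicate 2 was the wider in each genotype, and the genotypes overlapped. The lncRNA HYMAI, which is transcribed from the same region, had no TSS mark in any sample, and neither did IGF2R, the receptor that clears IGF2. GNAS on 20q13, which encodes the stimulatory G protein alpha subunit and further imprinted transcripts, had 791 and 370 covered bases in WT, 598 and 866 in 231K, and 225 and 557 in 232P. Its peaks were narrow, had summits 1240 to 4315 bp from the gene start at 58839718 of chromosome 20, and had a median highest -log10 q-value of 3.22, against 17.8 at GRB10, 9.30 at PLAGL1, 8.78 at IGF2, 7.25 at MAGEL2 and 6.56 at NDN. Over the gene and 1 kb on each side, the covered length was the same at the antisense gene GNAS-AS1. The start sites of GNAS-AS1 had a mark only in 232P replicate 1, with 225 covered bases. Peaks in the shared stretch cannot be assigned to either gene.

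The other loci were nearly free of the mark. On 14q32, DLK1, a Notch-like ligand, the lncRNAs MEG3 and MEG8 and the retrotransposon-derived RTL1 had no peak in the gene or 1 kb on either side in any sample. DIO3, which inactivates thyroid hormone, had no TSS mark but a peak at its 3' end in both WT samples, of 639 and 356 bp and with a fold enrichment of 2.85 and 3.86, and in none of the 4 Tau-KO samples. On 20q11 and 20q13, NNAT, BLCAP and L3MBTL1 had none in any sample. On 7q, TFPI2, SGCE, PEG10 and PPP1R9A had none, and the peak nearest to the starts of SGCE, PEG10 and PPP1R9A was over 1079 kb away in every sample. MEST, a hydrolase-like gene expressed from the paternal copy, had a peak at an inner start site in 231K replicate 2 and in 232P replicate 1, of 261 and 705 bp. DIRAS3, a growth restricting GTPase on 1p31, and NAP1L5 on 4q22 had none.

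The comparison of the Tau-KO lines with WT asks whether the mark at imprinted genes depends on Tau. Both WT samples had a TSS mark at 10 imprinted genes. It was lost, meaning absent from both samples of a line, at 0 of these in 231K and at 3 in 232P, namely SNRPN, ATP10A and ZIM2. Among all genes marked in both WT samples, the share lost was 2.70% in 231K and 7.73% in 232P. Of the 23 imprinted genes without the mark in WT, 0 gained it in both samples of either line, against 0.242% of all genes in 231K and 0.0925% in 232P. At the 3 lost genes, the strongest marked peaks in WT had 257 to 1334 bp and a -log10 q-value of at most 4.42. The median peak of the WT lists had 441 and 682 bp and a -log10 q-value of 2.58 and 3.06. No gene was lost in 232P when only the gene start or windows covered to at least 50% were counted. When only peaks that reached a -log10 q-value of 5 were counted, 1 was lost, NDN. No test per gene is given for presence and absence, since 2 against 2 samples cannot go below an exact permutation p of 0.33.

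Over the 14 loci together, peaks covered 7.70% ± 0.0925 (SD, n = 2) of the bases in WT, 6.41% ± 0.391 in 231K and 3.53% ± 1.80 in 232P. The 231K mean was below WT by more than the spread between replicates with all peaks as deposited, but not with thinned lists, where WT had 5.80% and 7.33% and 231K 4.90% and 6.32%, although 231K was below WT within each replicate number there too. The 232P samples differed from each other widely, with 2.26% and 4.81%. Divided by the genome-wide share of the same sample, the values were 1.05 and 0.807 in WT, 0.916 and 0.677 in 231K, and 0.944 and 0.667 in 232P, and the genotypes overlapped. Within each replicate number, both lines were still below WT. A peak was found at 8 of the loci. The exact permutation test of the covered share, two-sided, with 4 Tau-KO against 2 WT samples gave p = 0.067 at 14q32 and 19q13, the smallest p that this design allows, and p = 0.133 at 15q11. Adjusted over 8 loci, these were 0.267, 0.267 and 0.356. At GRB10 on 7p12, p was 0.4. The value at 14q32 rests on 1 peak in each WT sample, and with thinned lists or equal numbers of peaks that of WT replicate 1 was gone.

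**Figure D4:**
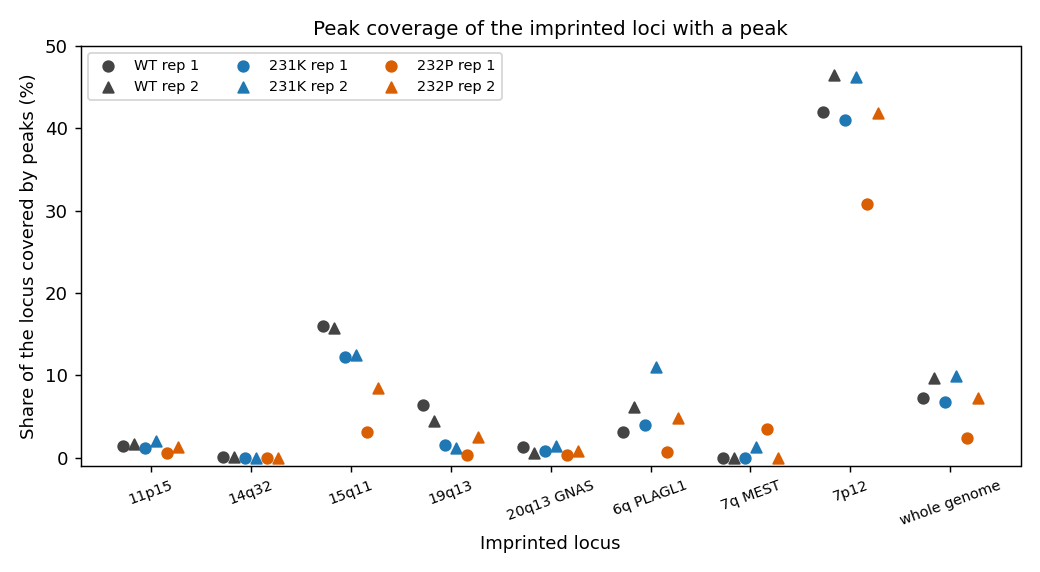
Share of each imprinted locus covered by H3K27me3 peaks (vertical axis, percent) in the 6 ChIP samples, for the 8 loci with a peak and for the whole genome; circles are replicate 1 and triangles replicate 2. At 15q11 and 19q13 all Tau-KO samples, with all peaks as deposited, lay below both WT samples, and at 7p12 only 232P replicate 1 stood apart.

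The covered length per gene, in the gene and 1 kb on each side, was compared with limma on log2(covered bases + 200). Of the 33 imprinted genes, 13 had a covered base in at least 2 samples and were tested among 9250 genes. No gene passed a Benjamini-Hochberg adjusted p of 0.05 in limma, 0% of the 9250 in 231K and 0% in 232P. An unadjusted p under 0.05 was given to 159 and 422 genes. Among the imprinted genes, these were PEG3 and ZIM2 in 231K and SNRPN in 232P, all lower than WT, where 1.25% and 3.61% of all genes were lower. PEG3 changed by -1.71 on the log2 scale (SE 0.648) in 231K with an adjusted p of 1.00 in limma, and by -1.07 (SE 0.648) in 232P with 0.839. SNRPN changed by -0.55 (SE 0.421) in 231K and by -1.31 (SE 0.421) in 232P, with adjusted p-values in limma of 1.00 and 0.839. With 2 samples in each group, a p above the threshold does not show that the coverage was equal. The median change of the 13 genes was -0.20 in 231K and -0.59 in 232P, beside 0.00 and 0.03 over all genes tested, with PEG3 and ZIM2 at identical values. With a pseudocount of 1000 bp the median was 0.01 in 232P, beside 0.18 over all genes. The members were not below all genes with peaks that reached a -log10 q-value of 5, where the median was 0.13 in 231K and 0.42 in 232P over 6 members, beside 0.00 and -0.18, nor in 231K without WT replicate 1 (0.00, beside 0.00) or without 231K replicate 2 (0.03, beside 0.02).

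These values are relative to the median gene of each sample. Without this centring, the median change of all genes was -0.04 in 231K and -0.92 in 232P, and GRB10, at 0.66 in 232P with centring, was at -0.29. Without 232P replicate 2, which leaves the list that stands apart as the only one of its line, 4 imprinted genes passed in limma, where 1416 genes were lower and 820 higher, with SNRPN as lower and IGF2, GRB10 and MEST as higher. These calls assume that the lone 232P library varies like the other groups. In the fits that left out a replicate, 12 or 13 of the 33 genes were tested. Without 232P replicate 1, the list that stands apart, 0 of the 33 genes passed, with SNRPN at -1.52 (adjusted p = 0.0960 in limma), while 63 genes were lower and 8 higher.

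A second list of 44 other imprinted genes and their neighbours was described in the same way. A TSS mark was found in 13 and 11 of them in WT, 10 and 11 in 231K, and 9 and 9 in 232P, beside the shares of all genes given above, which were also lowest in 232P. The mark was present in all 6 samples at 5, namely WT1, ZIM3, USP29, SLC22A2 and IGF2-AS, and absent from all at 29, which is 11.4% and 65.9% of the list, beside the 10.3% and 79.0% of all genes. By the median of the highest -log10 q-value, the leading genes were WT1 with 12.4, SLC22A3 with 11.2, ZIM3 with 10.4, USP29 with 10.2 and SLC22A2 with 9.96. WT1 is a transcription factor of kidney and gonad, USP29 and ZIM3 are the neighbours of PEG3, and SLC22A2 and SLC22A3 are cation transporters beside IGF2R. Among the 10 marked in both WT samples, the mark was lost at SNHG14 in both lines and at NPAP1 in 232P, beside the 2.70% and 7.73% lost over all genes. Both genes lie on 15q11. SNHG14 had 527 and 170 covered bases in WT and 0 in the other 4 samples. NPAP1, a gene of nuclear pore proteins between NDN and SNRPN, had 145 and 381 in WT, 235 and 0 in 231K, and 0 and 0 in 232P. In limma, the covered length of SNHG14 changed by -2.71 (SE 0.455) in 232P, with an adjusted p of 0.769. The change was -2.62 without 232P replicate 1 and -2.83 without replicate 2, each time with a lone 232P library that is assumed to vary like the other groups. Whether SNHG14 passed without replicate 1 depended on the centring.

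CG count and peaks were also compared over all promoters. Over 35116 RefSeq promoter windows, 16.9% of those with 0 to 4 CG were overlapped by a peak in WT replicate 1, 6.30% of those with 15 to 19, and 0.521% of those with 30 or more. The corresponding values were 18.3%, 5.49% and 0.394% in WT replicate 2, 15.6%, 4.76% and 0.292% in 231K replicate 1, and 18.7%, 4.98% and 0.280% in 231K replicate 2. In 232P they were 7.88%, 5.71% and 0.623% in replicate 1 and 14.9%, 2.67% and 0.140% in replicate 2. The share fell with each step in CG count in 5 samples, and in 232P replicate 1 it was 7.88% at 0 to 4 and 8.60% at 5 to 9 before it fell.

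Of the 33 imprinted genes, 22 had such a window, with 49 windows in all. A peak overlapped 7 of these in at least 1 sample, with a median of 4 CG, while the others had a median of 21. The exceptions were NDN with 35 CG and a window of PLAGL1 with 31, overlapped by 4 bases of a peak in 231K replicate 1 and by 26 and 93 in 232P. The median over all promoters was 14. The letters TGCCGC, the core of the motif bound by ZFP57, a protein that maintains methylation at imprinting control regions, were searched on both strands. They were found in 44.9% of the windows of imprinted genes and in 16.7% of all windows, and in 1 of the 7 windows with a peak, that of NDN. The 49 windows are not all separate sequences. Those of MEG3 overlap each other, and HYMAI and PLAGL1 share 1 window, which has the letters. A match of these letters is a description of the sequence and not a binding site.

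**Figure D5:**
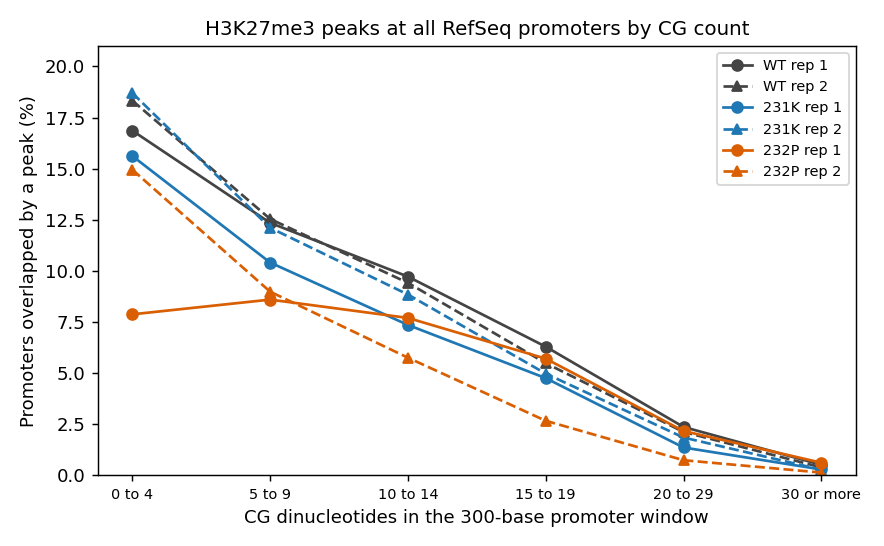
Share of all RefSeq promoter windows of 300 bases overlapped by an H3K27me3 peak (vertical axis, percent), by the number of CG dinucleotides in the window, for the 6 ChIP samples. The share was below 1% at 30 or more CG in every sample, and the line of 232P replicate 1 starts lower than the others.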

How the data were processed

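H3K27me3 ChIP-seq peaks of 6 samples were analysed. Per the study's methods, adapters were removed by trimmomatic, BWA aligned the reads to hg38, and the authors used MACS version 2 for the peaks of every library. The methods name the broadPeak setting, but the deposited lists have the narrowPeak format. At each summit, the deposited columns give a ratio over the local background (fold enrichment), a -log10 p-value and a -log10 q-value. The score column, as deposited, repeats the q-value on a scale of 10 and was not used. None is normalized between samples. The q-value threshold and the control library are not given in the sources used here. No read counts are in the lists. Summit height and background were recovered from fold enrichment and p-value by the Poisson distribution. The floor of the background divided by the smallest peak width gave the estimate of relative depth. It assumes that the background was not rescaled to a control library and that the smallest width is the fragment length. Neither was tested, and the thinning rests on this estimate.

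Peaks were overlapped with GENCODE release 44 by at least 1 bp. A mark was lost in a line when present in both WT samples and in neither sample of the line. Covered lengths plus 200 bp were compared on the log2 scale with limma 3.58.1 in R 4.3.3, with all 6 samples, for genes covered in at least 2, centred per sample on genes covered in all. The steps were tested on simulated data. Of 200 genes set to change in 232P against WT, limma called 0% at a log2 change of -1 or -2 and 68% at -4. The changed genes were drawn only from those with higher mean coverage. The shares thus say nothing on genes with little coverage. A further reference list is not reported here. All 33 genes are named. Covered lengths are given for those lost or present in all samples, and the fold enrichment for some of them. Members, lists and tests were chosen with earlier results of these data known. The paper calls the ChIP samples of a line biological duplicates, but the labels do not say that they are separate cultures. The p-values thus measure the spread between these samples, which may be technical in part.

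Alternatives were a q-value under 0.05, a -log10 q-value of at least 5, equal numbers of strongest peaks (147118), thinning of summit height and background to equal depth, with widths kept, at a common -log10 p-value of at least 2.50, a TSS window of 2.5 kb, 50% of the window covered, the gene start only, no flank, a replicate block, no centring, a pseudocount of 1000 bp, no filter, enrichment times width, and leaving out each replicate. The division by the genome-wide share, the protein-coding background and the joint setting without 232P replicate 1 and centring were added after seeing the data.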

Additional observations from a re-analysis of the deposited data

How the results depend on the processing

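Counting only peaks whose -log10 q-value reached 5, the genes with a TSS mark in all 6 samples fell from 6 to 1, those with a peak in or near the gene from 10 to 2, and the genes lost in 232P from 3 to 1. With 50% of the window covered, 1 gene had the mark in all samples and 0 were lost in 232P, and with the gene start only 0 were lost in 232P. With a TSS window of 2.5 kb, 1 gene, DIO3, was lost in 231K, and DIO3 and ATP10A in 232P, where SNRPN and ZIM2 were no longer lost. With equal numbers of strongest peaks, SNRPN and ATP10A were lost in 232P and ZIM2 was not. Thinning gave 1 gained gene in each line, GNAS, whose WT marks did not pass. Leaving out single replicates gave 0 to 2 genes lost in 231K, 3 to 4 lost in 232P, 0 to 1 gained in 231K and 0 to 2 gained in 232P. The losses in 231K were PEG3 and ZIM2 without 231K replicate 1, and SNRPN and ATP10A without 231K replicate 2. SNRPN, ATP10A and ZIM2 stayed lost in 232P in each case, but the rule fixes this. Leaving out a sample can only relax the condition for a gene already lost. The share of the loci covered was 7.34% in WT with a q-value under 0.05. For peaks that reached a -log10 q-value of 5 it was 2.76% in WT, 2.48% in 231K and 1.15% in 232P. With equal numbers of peaks it was 5.89% in WT and 5.14% in 231K, and thinned 6.56% and 5.61%. The mean of WT was highest in each case, but the difference to 231K was smaller than the SD of the WT replicates with a -log10 q-value of 5, equal numbers of peaks and thinning. Within each replicate number, 231K was below WT in these settings too. With a -log10 q-value of 5, 231K had 1.99% and 2.97% and WT 2.23% and 3.29%. With equal numbers of peaks, 231K had 4.41% and 5.87% and WT 5.20% and 6.59%. Of 3300 protein-coding genes marked in both WT samples, 231 were lost in 232P. The WT mean at 19q13 was 2.37% with equal numbers of peaks and 5.37% with all peaks.

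In limma, 0 of the 33 genes passed in 231K and 0 in 232P with the block, without centring, with the other pseudocount, without the filter, with a -log10 q-value of 5, with enrichment times width and without single replicates, except 4 without 232P replicate 2 (0 to 4 over the omissions), with SNRPN at -1.12 (adjusted p = 0.0417) and GRB10 at 1.05 (adjusted p = 0.00474). Of the second list, SNHG14 changed in 232P by -2.62 without replicate 1, where its call depended on the centring, and by -2.83 without replicate 2. IGF2-AS changed by 2.02 and ZIM3 by 1.15 without replicate 2. In these fits the 232P group is 1 library, which is assumed to vary like the other groups. SNRPN was at 0.44 in 231K and 0.41 in 232P for peaks that reached a -log10 q-value of 5, and GRB10 at -0.29 in 232P without centring and at -0.079 without 232P replicate 1 and centring. Of the 33 genes, only 12 to 14 were covered in enough samples to be tested in the limma fits named here, and 6 with a -log10 q-value of 5. The remaining genes could not pass. No limma fit was made on thinned lists, equal numbers of peaks, a q-value under 0.05 or genes without flank. The replicate numbers were also fitted as a block. Deviations from the group means correlated between genotypes by 0.322 to 0.478. The smallest peak width was 175 to 179 bp in replicates 1 and 240 to 262 bp in replicates 2, but the labels give no shared day or culture. With the replicate block, 0 of the 33 genes passed in either line and no call among all genes changed. The causes of these changes were not tested.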
